A study of Mus musculus with 17 samples.

Results

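Cultured neural progenitor cells that overexpress YAP (NSC-YAP) were compared with wild-type SVZ across all measured mouse genes. Both groups were taken from the sample titles and hold 5 of the 17 samples of the series, which are also 5 of its 12 RNA-seq libraries: 2 of NSC-YAP and 3 of SVZ. The NSC-YAP labels describe neural progenitors made from embryonic stem (ES) cells, with YAP overexpression as the treatment. A growth protocol for mouse neural stem cells names a basal medium with EGF, basic FGF and heparin. The SVZ labels give a wild-type treatment, but their source and tissue entries read brain tumor, so the labels conflict on the material. SVZ usually stands for the subventricular zone, the germinal layer beside the lateral ventricle, although the labels do not spell it out. The sources used here do not state strain, age, sex, the promoter and species of the YAP transgene, or whether the libraries came from separate cultures or animals. Fold changes were tested in a fit of all 12 RNA-seq libraries. Its p-values and standard errors therefore rest on the spread within all 4 groups, YAP-M tumour and YAP-M-dIDR libraries included. The spread between replicates may be technical, although the SVZ libraries differed in sex-linked genes, as given below. No library of progenitors without YAP overexpression was analysed here, so YAP overexpression, ES origin, culture, and cultured cells against whole tissue cannot be told apart in any result that follows.

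Yap1 encodes YAP, a coactivator of transcription that the Hippo kinases hold in the cytoplasm, and Wwtr1 encodes its paralog TAZ. In the nucleus both bind DNA through TEAD factors, and they are known for driving growth and proliferation genes and for being active in radial glia and other neural progenitors. The subventricular zone keeps neural stem cells in the adult brain, next to ciliated ependymal cells, blood vessels and the neurons and oligodendrocytes of the striatum and corpus callosum.

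Depth was even, with 25463303 and 25240544 counts in the NSC-YAP libraries and 24340413, 24500016 and 24762671 in the SVZ libraries. The NSC-YAP libraries had counts for fewer gene symbols, 23545 and 24195 against 27101 to 27212. Mitochondrial genes took 7.05% and 6.96% of their counts, against 12.7% to 17.0% in SVZ. Levels are given below as CPM, which are counts relative to library sizes scaled by TMM, a normalization that trims extreme genes. Differences are log2 fold changes, NSC-YAP over SVZ, with their standard errors (SE).

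Of 18329 tested genes, 3199 (17.5%) were called higher in NSC-YAP and 5061 (27.6%) lower, where a call needs a Benjamini-Hochberg adjusted p under 0.05 in edgeR's quasi-likelihood test and a change of 1 or more on the log2 scale. The median log2 fold change of all tested genes was -0.10. With quantile normalization and limma this median moved by 0.35 to 0.25 and the split turned to 4591 higher and 3643 lower, so the balance between rises and falls depends on the scaling. These shares are the background for every count of list members below. The plot of fold changes by list shows where each of 50 gene lists lay. In bulk RNA, fewer cells of a type and less RNA per cell cannot be told apart.

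**Figure D1:**
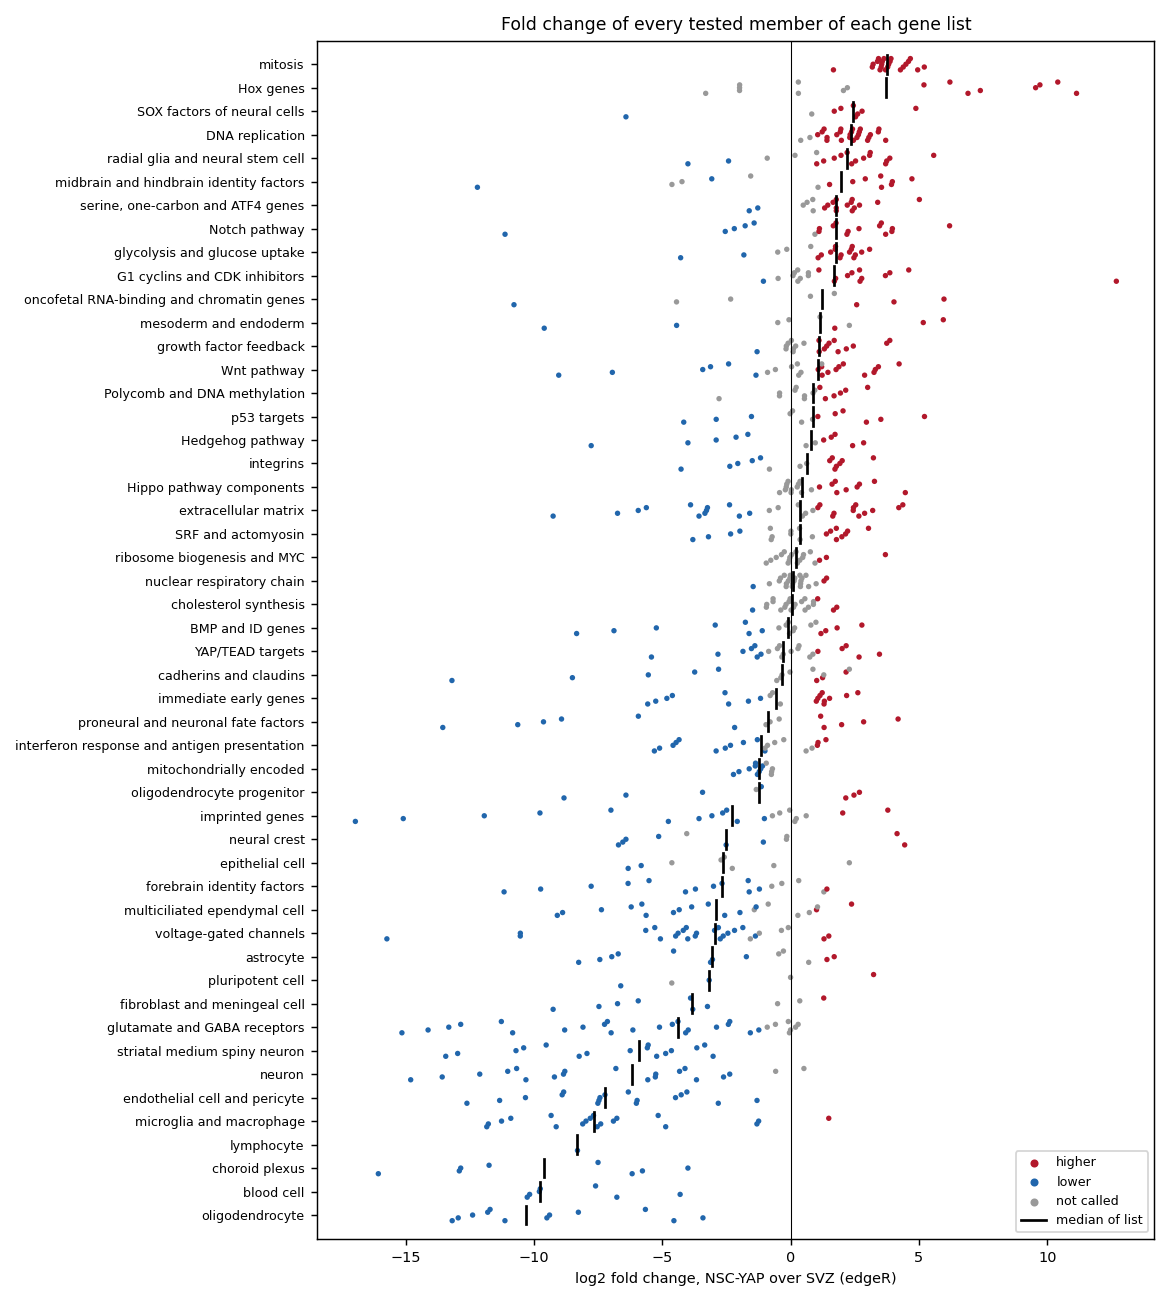
Log2 fold change, NSC-YAP over SVZ, of every tested member of 50 gene lists, with called members in red (higher) and blue (lower), other members in grey and a black bar at each list's median. Lists of mitosis, Hox genes, SOX factors and DNA replication lay furthest to the right and lists of oligodendrocytes, blood and choroid plexus furthest to the left. Fitted values of members with no count in a group depend on the prior count of the fit.

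Yap1 was measured at 241 and 238 CPM in the NSC-YAP libraries and at 21.5, 25.3 and 27.9 CPM in the SVZ libraries. The groups did not overlap, as the labels imply, and the fitted difference was 3.27 ± 0.53 (SE) on the log2 scale with an edgeR adjusted p of 0.000257. An exact 2-sided permutation test of log2(CPM + 1) gave p = 0.1, the smallest value that 10 splits of 5 libraries allow. The gene lies at chr9:7931999-8004596, minus strand (mm10), and the counts do not separate transgene from endogenous transcripts.

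Genes of the Hippo pathway that changed were all higher, the DNA-binding partners of YAP among them. Of 21 tested members, 9 rose, Yap1 included, and 0 fell, and the list's median was 0.43. Tead2, a TEAD factor of early neural progenitors, measured 129 and 123 CPM in NSC-YAP and 4.65, 5.89 and 6.50 CPM in SVZ, a difference of 4.47 ± 0.27 (SE). Tead3 rose by 2.68, Tead1 by 1.80 and Tead4, which stayed near 1 CPM, by 1.62. The Tead4 call was lost without either NSC-YAP library (1.72 and 1.55) and without SVZ replicate 2 (1.35). The TAZ gene Wwtr1 measured 128 and 139.8 CPM against 36.2, 39.3 and 44.8 CPM, 1.74 ± 0.13 (SE). Vgll4, which competes with YAP for TEAD, rose by 2.59. Among the kinases and their adaptors only Stk3 passed the test, at 1.13. The values of Lats1 (0.26), Lats2 (0.02), Stk4 (-0.15), Nf2 (-0.17) and Wwc1 (-0.43) did not reach the threshold.

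The textbook targets of YAP and TEAD did not move as a block. Of 22 tested targets 5 rose, 7 fell and 10 were not called, with a median of -0.31, beside -0.10 for all tested genes. Cyr61, a secreted matricellular protein, measured 38.5 and 35.2 CPM in NSC-YAP and 7.65, 9.08 and 10.8 CPM in SVZ, 2.01 ± 0.15 (SE). Amotl2, an angiomotin that holds YAP back in turn and stands on both lists, measured 107 and 111 CPM against 20.5, 26.3 and 26.0 CPM, 2.16 ± 0.14 (SE). Every NSC-YAP value of both genes lay above every SVZ value. Ptpn14, a phosphatase that binds YAP, rose by 2.67, Igfbp3, which binds insulin-like growth factors, by 3.46, and the receptor Axl by 1.06.

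Ctgf, the paralog of Cyr61 and a standard readout of YAP, went the other way. It measured 0.204 and 0.285 CPM in NSC-YAP and 9.95, 10.8 and 11.3 CPM in SVZ, -5.42 ± 0.48 (SE), edgeR adjusted p 6.77e-07. Ankrd1, another standard readout, was near the detection limit in all 5 libraries, at 0.651 and 0.163 CPM and 0.230, 0.0899 and 1.27 CPM, and the groups overlapped. Its difference of -0.34 ± 0.84 (SE) was not called, with an edgeR adjusted p of 0.734. The sign of that value turned positive without NSC-YAP replicate 2 (0.34), without SVZ replicate 3 (1.34) and under quantile normalization (1.59). Arhgef17 measured 20.4 and 20.0 CPM against 148, 154 and 128 CPM, -2.83 ± 0.21 (SE), and Crim1, Ccdc80, Nt5e, Rbms3 and Myof also fell, by 1.15 to 1.86, with Nt5e (-0.64) and Myof (-0.75) not called under quantile normalization. Summed markers of endothelial cells and pericytes, which transcribe Ctgf and Crim1 in tissue, were 25.3 and 26.0 CPM in NSC-YAP and 495, 492 and 620.2 CPM in SVZ, and their part in these falls was not tested.

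**Figure D2:**
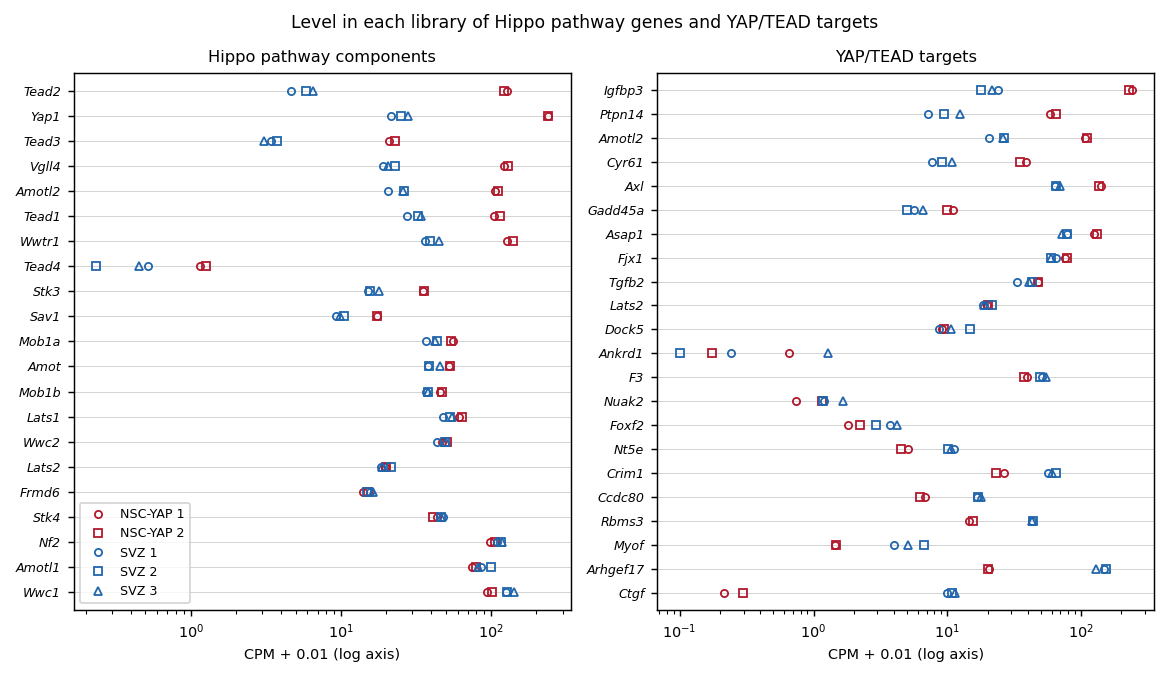
Level in each library (CPM + 0.01, log axis) of the Hippo pathway genes (left) and the YAP/TEAD targets (right), ordered by fold change, with NSC-YAP in red and SVZ in blue. Yap1, the TEAD genes, Cyr61 and Amotl2 were higher in both NSC-YAP libraries, Ctgf was lower, and Ankrd1 overlapped.

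The promoters of Cyr61, Amotl2 and Ankrd1 are shown because these 3 targets, of which Ankrd1 alone did not rise, all carry the core TEAD word. The 250 bases before each start come from RefSeq (GRCm38.p6), 5′ to 3′ on the gene's strand, with each CATTCC, or GGAATG where the word is on the opposite strand, in capitals. They are Cyr61 at chr3:145649986-145650235 (minus strand), Ankrd1 at chr19:36119845-36120094 (minus strand) and Amotl2 at chr9:102717554-102717803 (plus strand).
Cyr61: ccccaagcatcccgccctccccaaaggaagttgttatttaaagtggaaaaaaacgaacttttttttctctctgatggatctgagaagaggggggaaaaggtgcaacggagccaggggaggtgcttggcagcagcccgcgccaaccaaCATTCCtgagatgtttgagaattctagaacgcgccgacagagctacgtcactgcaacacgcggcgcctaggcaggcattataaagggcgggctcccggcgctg
Ankrd1: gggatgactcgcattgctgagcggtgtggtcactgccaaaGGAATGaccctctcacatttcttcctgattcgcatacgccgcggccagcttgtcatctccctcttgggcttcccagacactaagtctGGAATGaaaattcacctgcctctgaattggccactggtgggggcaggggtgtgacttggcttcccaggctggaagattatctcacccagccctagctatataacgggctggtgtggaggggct
Amotl2: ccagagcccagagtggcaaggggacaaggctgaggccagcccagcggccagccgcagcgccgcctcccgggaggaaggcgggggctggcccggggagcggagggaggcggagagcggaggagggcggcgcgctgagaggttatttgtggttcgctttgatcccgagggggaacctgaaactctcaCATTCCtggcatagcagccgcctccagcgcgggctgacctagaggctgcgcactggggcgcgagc
The match in the Cyr61 promoter began 103 bases before the start, that of Amotl2 65 bases, and those of Ankrd1 210 and 123 bases. CATTCC on either strand stood in 6 of 15 target promoters with an entry (40.0%), against 14.4% of 27025 genes with an entry. That share was not particular to the targets. It was 44.4% of 18 Hippo pathway promoters, 40.0% of 15 imprinted and 40.0% of 5 fibroblast and meningeal promoters, and lower in the other lists with entries. Among the called genes CATTCC stood in a similar share of those higher (14.2%) and of those lower (14.8%) in NSC-YAP. A match is a description of these letters and does not show binding.

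Genes of the contractile cytoskeleton went both ways. Among 20 SRF and actomyosin genes 8 rose, 4 fell and 8 were not called. Actg1, cytoplasmic gamma actin, measured 3509 and 3316 CPM against 1017, 1011 and 949 CPM, 1.78 ± 0.17 (SE), and Cnn3 477 and 457 CPM against 98.1, 102 and 99.7 CPM, 2.22 ± 0.12 (SE). Myh9, the heavy chain of nonmuscle myosin, rose by 2.00, the cross-linker Flna by 1.79 and Tagln2 by 3.04. Acta2, smooth muscle actin, fell by 1.98, a call lost without NSC-YAP replicate 2 (-1.67) and under quantile normalization (-1.02). Tpm2 and Filip1l fell by 3.20 and 3.81, and Csrp1 went from 287 CPM in SVZ to 56.8 CPM in NSC-YAP.

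The extracellular matrix was also divided, with 12 of 30 genes higher and 12 lower. Laminin and fibronectin genes rose, among them Lama5 (213 and 236 CPM against 8.24, 11.1 and 13.1 CPM, 4.37 ± 0.23 SE), Lamc1 (2.54) and Fn1 (3.20). So did Tnc (2.88), the lecticans Ncan (2.44), Vcan (1.69) and Bcan (1.64), and the cross-linking oxidase Loxl2 (4.22). Fibrillar collagens were mostly lower, although Col5a1 rose by 2.66. Col1a2 measured 0.773 and 0.652 CPM against 38.4, 49.1 and 44.5 CPM, -5.94 ± 0.86 (SE), and Col1a1, Col3a1, Dcn and Bgn fell by 3.24 to 6.74. Of 10 fibroblast and meningeal markers, some of them these collagens, 7 fell and 1, Prrx1, rose. That rise was not called without NSC-YAP replicate 2 (1.19). Their summed level was 51.9 and 53.9 CPM in NSC-YAP and 159, 183 and 173 CPM in SVZ, and their part in the collagen falls was not tested. Integrins, the receptors for matrix, had 7 of 15 genes higher, led by the laminin receptor subunit Itga7 (3.23) and including Itga6 (1.78), Itgb1 (1.62), Itgav (1.92) and Itga5 (2.01), and 5 lower, with Itgb4 at -4.27.

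Proliferation genes rose in nearly every case. All 22 mitosis genes were called higher, with a median of 3.74, as were 24 of 26 DNA replication genes, with a median of 2.35. Summed mitosis genes came to 1509 and 1548 CPM in NSC-YAP and 83.1, 123 and 113 CPM in SVZ. Cdc20, an activator of the anaphase-promoting complex, measured 75.3 and 75.4 CPM against 1.43, 2.61 and 2.05 CPM, 5.21 ± 0.31 (SE). Top2a measured 194 and 195 CPM against 10.7, 16.1 and 14.5 CPM, and the antigen of dividing cells Mki67 165 and 190.2 CPM against 10.3, 19.4 and 15.7 CPM, a difference of 3.55 ± 0.32 (SE). In these genes no SVZ library came near an NSC-YAP library. The smallest rise was that of Ccnb2, at 1.67. Among replication genes, the licensing factors Cdt1 and Mcm5 rose by 3.44 and 2.68, the helicase subunit gene Gins2 by 3.71 and the sliding clamp gene Pcna by 1.06.

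Mitotic promoters are shown because the CCAAT box, the site of the NF-Y factor, recurs in them. It stood in 16 of 18 mitosis promoters with a RefSeq entry (88.9%), in 61.9% of 21 replication promoters and in 37.5% of all genes with an entry. High shares were not particular to these lists. They were 100% of 16 cholesterol synthesis, 80% of 5 blood cell and 70.6% of 17 serine, one-carbon and ATF4 promoters. Among the called genes CCAAT stood in 44.0% of those higher and 37.1% of those lower in NSC-YAP. Cdc20 lies on the minus strand at chr4:118437344-118437593 and Aurka, a spindle kinase, on the minus strand at chr2:172370571-172370820 (GRCm38.p6), and CCAAT is in capitals.
Cdc20: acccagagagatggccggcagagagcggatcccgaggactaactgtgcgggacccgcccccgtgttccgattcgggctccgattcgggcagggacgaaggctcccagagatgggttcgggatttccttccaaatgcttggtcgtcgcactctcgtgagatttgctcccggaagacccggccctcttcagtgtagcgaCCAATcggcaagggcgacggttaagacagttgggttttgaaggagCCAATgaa
Aurka: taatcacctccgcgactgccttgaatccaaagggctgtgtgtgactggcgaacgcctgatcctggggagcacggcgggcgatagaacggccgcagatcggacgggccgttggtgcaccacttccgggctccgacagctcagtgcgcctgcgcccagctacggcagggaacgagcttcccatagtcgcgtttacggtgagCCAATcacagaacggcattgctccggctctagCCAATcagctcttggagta
Both hold 2 CCAAT boxes on the gene's strand, which begin 53 and 8 bases before the start in Cdc20 and 51 and 19 in Aurka.

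Of 21 genes of the G1 machinery 12 were higher, both drivers and brakes among them. Cdk4 measured 404 and 391 CPM against 66.8, 60.1 and 58.3 CPM, 2.69 ± 0.11 (SE), and the D-type cyclins Ccnd1, Ccnd2 and Ccnd3 rose by 2.39, 1.76 and 2.71. Cdkn2a, whose transcripts encode the CDK4 inhibitor INK4A and the p53 activator ARF, had the largest fitted rise of all genes named here. It measured 143 and 132 CPM in NSC-YAP and 0, 0 and 0.0489 CPM in SVZ, where 1 count stood in 1 of 3 libraries, and the ratio of mean CPM was 8449 with a 95% interval from counting error of 1591 to 350267. It lies at chr4:89274471-89294653, minus strand (mm10), beside Cdkn2b, which rose by 4.60. Cdkn1a, the p21 gene, measured 230.3 and 210.2 CPM against 18.0, 17.5 and 15.5 CPM, 3.70 ± 0.47 (SE), and Cdkn2c and Cdkn1b rose by 3.87 and 1.71. Only Cdkn1c was called lower (-1.06), and that call was lost under the replicate block, quantile normalization and 4 of the 5 fits without 1 library (-1.10 to -0.96), the exception being that without SVZ replicate 1.

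Targets of p53 leaned upward, with 6 of 13 higher and 3 lower. Eda2r measured 26.3 and 26.9 CPM against 0.691, 0.989 and 0.440 CPM, 5.22 ± 0.82 (SE), and Bbc3, Sesn2, Trp53inp1 and Bax rose by 1.74 to 3.52. Perp, Pmaip1 and Plk2 fell, by 4.16, 2.90 and 1.53, Pmaip1 not being called under quantile normalization (-0.71). Mdm2 (0.08) and Trp53 itself (0.43) were not called. Myc measured 75.5 and 77.8 CPM against 5.80, 6.47 and 5.47 CPM, 3.69 ± 0.15 (SE). Of 19 genes on the list of ribosome biogenesis, a known target process of MYC, 3 rose, Myc itself with Pes1 (1.40) and Fbl (1.13), and the list's median was 0.21.

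Markers of radial glia and neural stem cells were mostly higher in NSC-YAP, as the labels of the cells imply. Of 19 markers 14 rose and 2 fell, with a median of 2.20, and their summed level was 11212 and 11146 CPM in NSC-YAP and 1716, 1902 and 2045 CPM in SVZ. Vim, an intermediate filament of radial glia, measured 2304 and 2126 CPM against 45.7, 47.2 and 46.3 CPM, 5.58 ± 0.16 (SE). Nes measured 173 and 172 CPM against 17.7, 18.0 and 24.5 CPM, and Sox2, a factor of neural stem cells, 499.6 and 476 CPM against 74.7, 84.1 and 94.4 CPM. The differences of Nes and Sox2 were 3.10 ± 0.22 and 2.53 ± 0.28 (SE). Fabp7 rose by 3.75, Ptprz1 by 2.38, the glutamate transporter gene Slc1a3 by 2.20 and Pax6 by 1.29. Hopx (-2.42) and Gli3 (-4.00) were lower, and Prom1 (-0.91) and Nr2e1 (0.17) were not called. Cdh2 rose by 1.02, a call lost under the replicate block (0.95) and quantile normalization (0.96).

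SOX factors were mostly higher. Of 9 genes 7 rose, led by Sox3, at 137 and 123 CPM against 4.01, 4.54 and 4.69 CPM, 4.88 ± 0.50 (SE), and including Sox21 (2.78), Sox6 (2.61), Sox9 (2.44) and Sox8 (1.96). Sox10, the SOX factor of the oligodendrocyte lineage, measured 1.38 and 1.55 CPM against 123, 126 and 128 CPM, -6.42 ± 0.59 (SE), and Sox5 (0.82) was not called.

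Genes of the Notch pathway, which keeps neighbouring progenitors from differentiating, were mostly higher. Of 19 genes 13 rose and 5 fell, and ligands and effectors stood on both sides. The ligand genes Dll3 and Dll1 measured 230.4 and 205 and 93.5 and 93.6 CPM in NSC-YAP, against 3.45, 3.28 and 2.15 CPM and 5.76, 5.89 and 6.55 CPM in SVZ, 6.20 ± 0.32 and 3.95 ± 0.27 (SE). The receptors Notch1, Notch3 and Notch2 rose by 3.54, 3.47 and 1.77, and the effectors Hes5 and Hes1 by 3.70 and 2.24. Hes6, a relative of these effectors on the list, rose by 3.97. Dll4, Jag2, Hey2, Heyl and Maml3 were lower, although Dll4 was not called under quantile normalization (-0.26). Heyl had no count in NSC-YAP and 12.3, 11.4 and 11.4 CPM in SVZ, at least 192-fold lower. Heyl and Dll4 are also genes of blood vessels, whose markers fell as given above, and the part of vessels was not tested.

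Receptors and feedback genes of the FGF and EGF pathways, the factors of the culture medium, were mostly higher, in 11 of 20 cases. Egfr measured 311 and 332 CPM against 19.1, 22.4 and 24.5 CPM, 3.87 ± 0.20 (SE), and Fgfr1 and Fgfr3 rose by 2.17 and 1.70. Of the ETS factors that FGF induces, Etv4 measured 166 and 169 CPM against a mean of 12.5 CPM, 3.75 ± 0.22 (SE), and Etv5 and Etv1 rose by 1.85 and 1.32. The inhibitors Spry2 and Spry4 rose by 1.41 and 1.12, while Dusp6 (0.11) and Spred1 (0.10) were not called. Fgfr2 alone was lower, at -1.31.

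Wnt, Hedgehog and BMP genes each split. Of 25 Wnt genes 12 rose, among them the ligands Wnt7b (454 and 431 CPM against 23.8, 23.0 and 23.9 CPM, 4.23 ± 0.37 SE) and Wnt5a (3.42) and the coreceptor Lrp5 (3.25), and 6 fell, among them Lef1 (-3.12) and Dkk3, at 0.122 and 0.204 CPM against 91.8, 93.1 and 79.8 CPM. The feedback target Axin2 was not called, at 0.04. Of 12 Hedgehog genes 5 rose, with Smo at 2.42, Gas1 at 2.85 and Ptch1 at 1.73, and 5 fell. Among the latter, Gli1, the usual target of the pathway, was at -1.67 and not called without NSC-YAP replicate 2 (-1.47) or under quantile normalization (-0.40), and Shh itself had 1 count in NSC-YAP against 6.03, 4.72 and 6.01 CPM in SVZ. Of 19 tested BMP and ID genes 4 rose, including Bmp7 (2.78), and 7 fell, including Id4 (-1.62), Smad9 (-2.94), Bmp4 (-6.88) and Bmp6 (-5.23).

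Forebrain factors were mostly lower in NSC-YAP, 12 of 17 with 1 higher (Otx1) and a median of -2.67. Lhx2 (0.32) was not called. Factors of the ventral telencephalon were among those that fell: Six3 measured 0.204 and 0.285 CPM against 48.9, 50.6 and 64.3 CPM, Dlx1 1.42 and 2.65 CPM against 30.4, 37.5 and 36.8 CPM, and Isl1 had no count in NSC-YAP, at least 197-fold below 10.5, 10.8 and 14.8 CPM. Dlx1, Isl1 and Lhx6 also mark striatal neurons and interneurons, and the neuron markers given below fell with them. The part of neurons was not tested.

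Midbrain and hindbrain factors leaned the other way, with 8 of 14 tested higher and 2 lower, and 4 more of the 18 too low to test. Irx1 measured 86.3 and 80.4 CPM against 3.59, 3.37 and 2.44 CPM, 4.73 ± 0.29 (SE). Irx3, Irx5, Irx2, En1, En2 and Lmx1b rose by 2.42 to 3.97, and Nkx2-2 by 1.52. Lmx1a was lower at levels below 2 CPM, a call lost without either NSC-YAP library (-2.78 and -3.38) and under quantile normalization (-0.65). Nkx6-2, a factor of mature oligodendrocytes, had no count in NSC-YAP and 22.0, 25.4 and 26.7 CPM in SVZ.

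Hox genes, which specify the hindbrain and spinal cord and are silent in the forebrain, were detected in NSC-YAP mainly from the HoxA cluster. Of 39 Hox genes 16 were tested, 8 were called higher, all of them in HoxA, and 0 lower. Hoxa5 measured 28.2 and 26.1 CPM in NSC-YAP and 0.0461, 0.0450 and 0 CPM in SVZ, a ratio of 894 (95% counting interval 241 to 7224). Hoxa3, Hoxa4 and Hoxa2 had no count in SVZ and 12.3 and 11.3, 8.02 and 6.24 and 4.23 and 4.57 CPM in NSC-YAP, at least 254-fold, 153-fold and 94.5-fold higher. Hoxa7 and the posterior genes Hoxa10 and Hoxa13 measured 1.53, 1.32 and 0.876 CPM on average. The noncoding Hotairm1, which lies in the HoxA cluster, rose to 14.4 and 13.6 CPM from 0, 0.135 and 0.244 CPM. The list's median of 3.70 became 3.22 with genes at 0 in a group set at their bound, and with a minimum of 5 CPM 5 Hox genes were called.

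**Figure D3:**
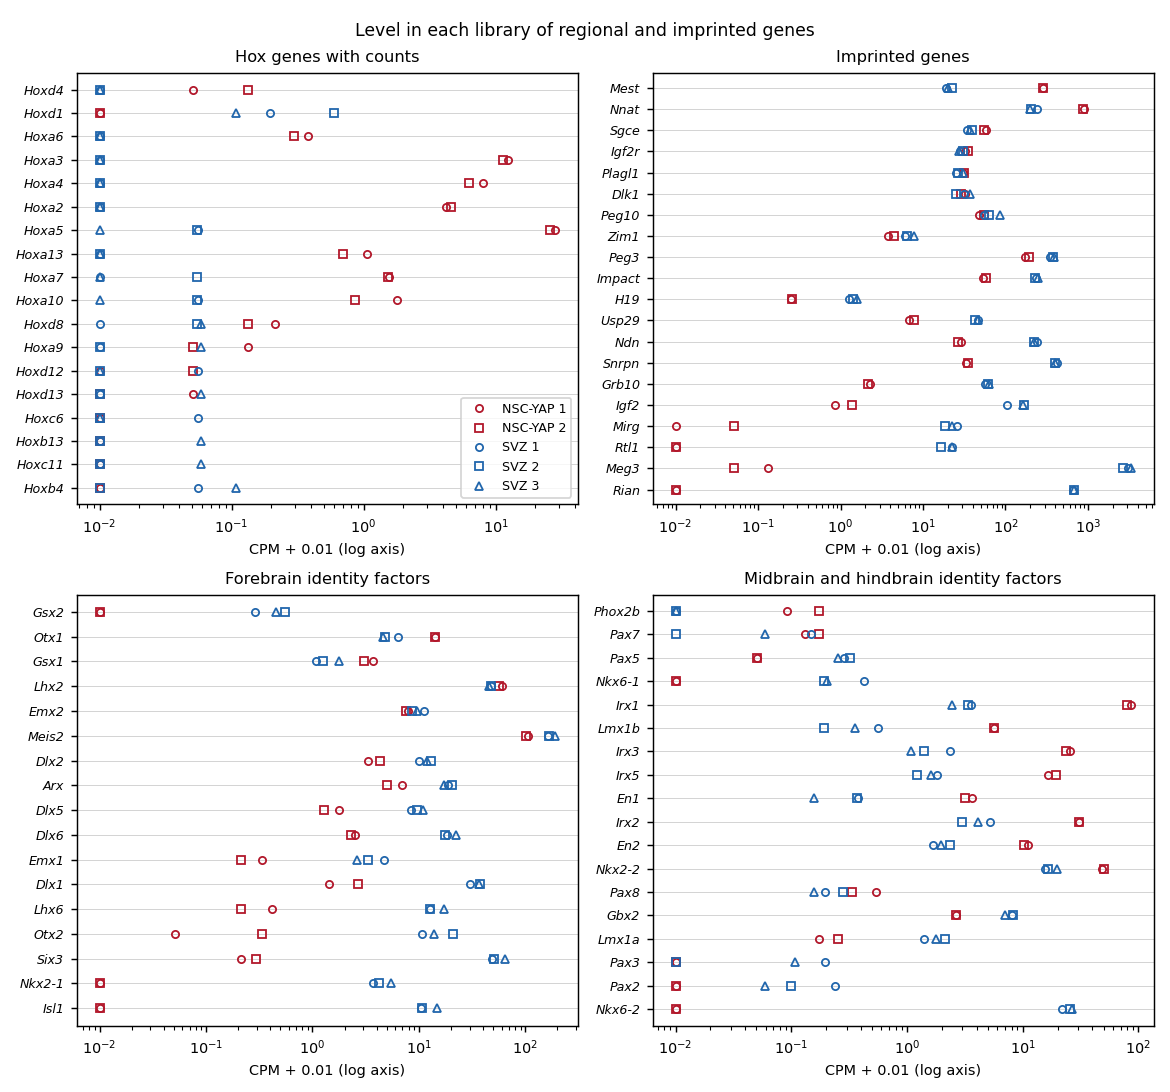
Level in each library (CPM + 0.01, log axis) of Hox genes, imprinted genes, forebrain factors and midbrain and hindbrain factors, ordered by fold change with untested genes on top, NSC-YAP in red and SVZ in blue. Points at the left edge are libraries with no count. The called HoxA genes were higher in NSC-YAP, and Rian, Meg3, Rtl1 and Mirg were at or near no count there.

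Proneural and neuronal fate factors went both ways. Among 14 tested genes 5 rose, among them Sox4, Sox11, Myt1 and the repressor Rest, by 1.17 to 4.19. Factors of postmitotic neurons were among the 6 that fell, with Neurod6 at no count against 75.2, 71.6 and 42.2 CPM and Myt1l at 0.529 and 0.285 CPM against 196, 205 and 202 CPM.

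Imprinted genes, expressed from 1 parental copy, showed a contrast within a single locus. At Dlk1-Meg3 on chromosome 12 the paternally expressed Dlk1 was not called, at 32.3 and 28.9 CPM in NSC-YAP and 31.4, 25.4 and 37.5 CPM in SVZ, -0.04 ± 0.35 (SE). The maternally expressed noncoding genes of the same locus were absent or nearly so in NSC-YAP. Meg3, at chr12:109541001-109571726, plus strand (mm10), measured 0.122 and 0.0408 CPM against 3080.3, 2689 and 3327 CPM. Rian, at chr12:109603940-109661716, plus strand, had no count against 660.1, 669 and 674 CPM, at least 10928-fold lower, with counts identical to those of another entry, AC152063.6. Mirg had 1 count against 25.9, 18.6 and 22.4 CPM. Rtl1, which is paternally expressed with a maternal antisense partner, had no count against 22.3, 16.7 and 22.6 CPM.

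Over the whole list 12 of 20 imprinted genes fell and 2 rose. Igf2, a fetal growth factor also made by the choroid plexus and meninges, measured 0.855 and 1.39 CPM against 103, 166 and 163 CPM, -7.00 ± 0.35 (SE), and H19, its neighbour, was below 2 CPM in all 5 libraries, its fall not being called without either NSC-YAP library (-2.46 and -2.48). Ndn, Snrpn and Usp29 fell by 2.65 to 3.57 and Grb10 by 4.76. Mest measured 285 and 281 CPM against 18.9, 22.6 and 20.0 CPM, 3.79 ± 0.33 (SE), and Nnat rose by 2.03. Neuron markers, whose cells transcribe Meg3, Rian, Ndn and Snrpn at high level, summed to 946 and 1021 CPM in NSC-YAP and 9988, 9461 and 9363 CPM in SVZ. Their part in these falls was not tested.

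Chromatin and oncofetal genes rose in part. Maintenance methylation genes Uhrf1 (from 4.65, 5.89 and 4.69 CPM in SVZ to 41.4 and 40.1 CPM) and Dnmt1 (1.14), the Polycomb methyltransferase Ezh2 (1.69) and Cbx2 (2.15) were among 6 of 15 genes that were higher. Hmga2, an architectural factor of fetal stem cells, measured 11.2 and 12.9 CPM against 0, 0.225 and 0.342 CPM, 5.98 ± 0.62 (SE), and Igf2bp2 47.6 and 43.6 CPM against 2.81, 3.06 and 2.49 CPM, while Lin28b had no count against 9.81, 8.32 and 9.48 CPM.

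Genes on the list of oligodendrocyte progenitors went both ways, and markers of myelinating oligodendrocytes were lower. Of the 8 genes on the progenitor list 3 rose and 4 fell, with a median of -1.24. Olig1 measured 1573 and 1501 CPM against 350.3, 344 and 345 CPM, and Olig2 623 and 587 CPM against 111, 99.3 and 118 CPM, 2.15 ± 0.42 and 2.47 ± 0.44 (SE). Cspg4, the NG2 proteoglycan, rose by 2.68. Pdgfra, the receptor of oligodendrocyte progenitors, was lower at 46.1 and 44.9 CPM against 83.7, 101 and 117 CPM, a call lost without either NSC-YAP library (-1.13 and -1.11) and under the replicate block (-0.96). Bcas1, Enpp6 and Sox10, which stand on this list but are not confined to progenitors, fell by 3.43 to 8.83. Gpr17 (-1.34) was not called, although it was in a fit of these 2 groups alone (-1.34). The summed level of the 8 was 2619 and 2530.2 CPM in NSC-YAP and 1608, 1686 and 1912 CPM in SVZ, and most of the NSC-YAP sum came from Olig1 and Olig2. All 12 markers of myelinating oligodendrocytes fell, with a median of -10.31. Mbp, myelin basic protein, measured 2.85 and 2.41 CPM against 13015, 13358 and 16075 CPM, -12.39 ± 0.66 (SE), and the 12 summed to 162 and 164 CPM against 31089, 32548 and 37262 CPM.

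Astrocyte markers fell in 8 of 13 cases. Aqp4, the water channel of astrocyte endfeet, measured 2.69 and 3.18 CPM against 279, 329 and 319 CPM, Gja1 1.83 and 2.28 CPM against 331, 358 and 381 CPM, and Gfap 10.6 and 11.8 CPM against 264, 270.2 and 260.0 CPM. Fgfr3 and Acsbg1 rose, by 1.70 and 1.42, and Aldoc and Glul were not called.

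Ependymal genes also divided. Of 20 tested, 13 fell and 2 rose, and most of the falls were in structural genes of motile cilia, such as Rsph4a (0 and 0.0815 CPM against 5.90, 10.6 and 6.35 CPM) and Ak7 (0.244 and 0.163 CPM against 7.55, 13.2 and 10.3 CPM). Foxj1, the master factor of motile cilia, was not called and measured 37.3 and 37.5 CPM against 20.2, 26.7 and 20.8 CPM, 0.73 ± 0.44 (SE). Rfx3, its partner, measured 57.1 and 66.0 CPM against 54.4, 49.9 and 47.3 CPM. The specification genes Gmnc and Mcidas had no count in NSC-YAP, with 2.12, 2.56 and 2.74 CPM and 0.0461, 0.315 and 0.147 CPM in SVZ, and Ccno was at 2.32 and 2.12 CPM against 0.507, 1.48 and 1.22 CPM. Of the rises, Rfx2 was near the threshold at 1.01 and not called without NSC-YAP replicate 2 (0.93), without SVZ replicate 1 (0.97) and under 3 other alternatives, and Spag6 lay below 2 CPM in all 5 libraries.

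Neuronal genes were mostly lower in NSC-YAP. Of 20 neuron markers 18 fell and 0 rose, with a median of -6.19, and all 16 markers of striatal medium spiny neurons fell. Snap25, a synaptic vesicle fusion protein, measured 2.32 and 1.79 CPM against 1281, 1177 and 1188 CPM, -9.20 ± 0.87 (SE). Ppp1r1b, the DARPP-32 gene of striatal neurons, measured 7.20 and 6.89 CPM against 575, 495 and 541 CPM, -6.25 ± 0.60 (SE). The 2 neuron markers that did not fall were the microtubule genes Dcx, at 52.2 and 58.4 CPM against 33.8, 40.5 and 41.4 CPM, and Map2, at 654 and 719.7 CPM against 966, 981 and 1137 CPM, neither of which was called.

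Among 29 glutamate and GABA receptor genes 22 fell and 0 rose. Grin1, the obligate subunit of NMDA receptors, measured 2.69 and 3.63 CPM against 251, 226 and 194 CPM. The other 7 were not called, among them Gria2 (260.0 CPM on average) and Grik5 (232 CPM). Voltage-gated channels fell in 21 of 27 cases, with Scn4b at no count against 298, 282 and 276 CPM, and rose in 2, Cacna1h (1.49) and Kcnd3 (1.30). Immediate early genes went both ways: Arc (2.85 and 3.14 CPM against 114, 120.4 and 109 CPM), Egr3, Egr4 and Npas4 fell, the last 3 by 4.61 to 5.57, while Btg2, Jun, Fos and Nr4a1 rose by 1.06 to 2.62. Over that list 9 of 20 genes were higher and 8 lower.

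Most markers of the other cell classes of brain tissue were at or near 0 in NSC-YAP. Microglia and macrophage markers summed to 78.5 and 81.8 CPM against 674, 757 and 903 CPM, and 18 of 19 fell. Cd68, a lysosomal gene of many cells, rose, while P2ry12 had 1 count against 74.6, 90.0 and 105 CPM. Endothelial and pericyte markers fell in 17 of 17 cases, and Flt1 gave 18.1 CPM of their NSC-YAP sum. Globins and other blood genes fell in 7 of 7 and choroid plexus genes in 8 of 8 cases. Ttr, the main choroid plexus transcript, measured 0 and 0.0408 CPM against 907, 2254 and 2106 CPM, a ratio of SVZ over NSC-YAP of 86142 (95% counting interval 15449 to 3399910.0), and its call was lost without either NSC-YAP library (edgeR adjusted p 0.0565 and 0.0536). Cd4 was the sole lymphocyte marker high enough to test, and fell.

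**Figure D4:**
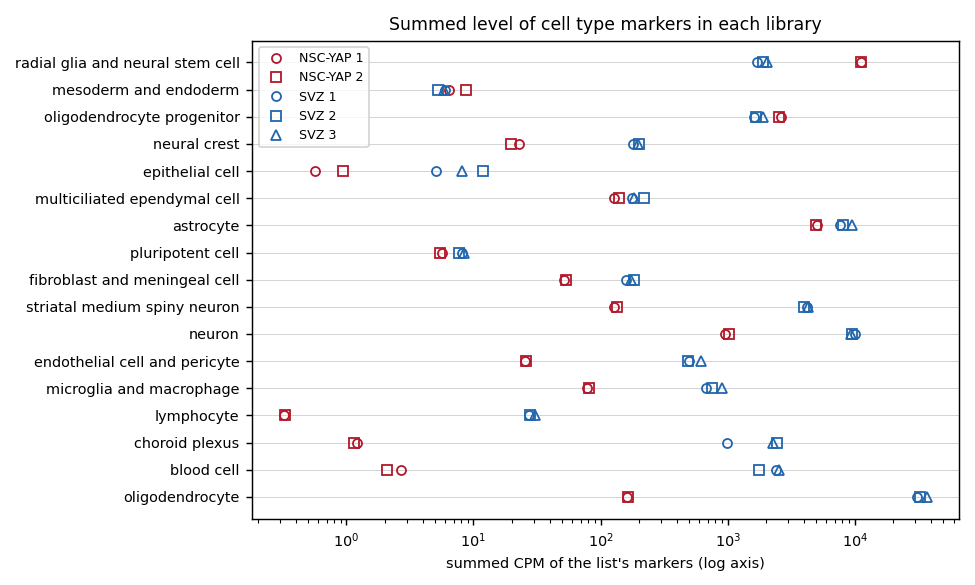
Summed CPM of the markers of each cell type list in each library (log axis), NSC-YAP in red and SVZ in blue, with lists ordered by the median fold change of their members. Radial glia and oligodendrocyte progenitor sums were higher in NSC-YAP, the latter through Olig1 and Olig2 while 4 of its 8 members fell. The low mesoderm and endoderm sums were also higher, at 6.43 and 8.72 CPM against 5.94, 5.26 and 5.86 CPM. The sums of neurons, glia, vessels, blood and choroid plexus were lower.

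Pluripotency markers, of interest because of the ES origin, were low in both groups. Of 16 pluripotency markers 5 were tested. Pou5f1, the core factor, had no count in any of the 5 libraries, and Nanog, which has retrotransposed copies, measured 2.73 and 1.75 CPM against 0.230, 0.180 and 0.293 CPM and was called higher. That call was lost with a minimum of 5 CPM, where the gene was not tested, and no pluripotency gene was called higher without either NSC-YAP library. Gata6, an endoderm and heart factor, measured 3.26 and 5.06 CPM against 0.0461, 0.0899 and 0.0489 CPM, 5.95 ± 1.02 (SE), and Tfap2a, of the neural crest and surface ectoderm, 1.75 and 2.28 CPM against 0, 0.135 and 0.195 CPM. The neural crest list as a whole leaned the other way. Of its 11 markers 2 rose and 6 fell, Sox10 among the falls, with a median of -2.51. They summed to 22.8 and 19.8 CPM against 182, 201 and 198 CPM. Epithelial markers were below 4 CPM on average in both groups. Markers of mesoderm and endoderm summed to 6.43 and 8.72 CPM against 5.94, 5.26 and 5.86 CPM.

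Interferon and antigen presentation genes were lower in 11 of 20 cases and higher in 3. H2-D1, a class I MHC gene, measured 6.15 and 6.77 CPM against 32.0, 32.4 and 33.9 CPM, and Ifit1 and Bst2, both induced by interferon, fell by 5.31 and 5.11. Of the 3 rises, those of Tap1 and Irf1 were not called without NSC-YAP replicate 2 (1.01 and 0.97), nor were Tap1 without SVZ replicate 3 (0.99) and Irf1 without SVZ replicate 1 (0.92). Under quantile normalization 5 genes were called lower, and in a fit of these 2 groups alone 7 were. Microglia and vessel markers fell beside this list, and their part was not tested.

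Genes of glycolysis were mostly higher. Of 19 genes for glycolysis and glucose uptake 14 rose and 2 fell, with a median of 1.75. Ldha, the lactate dehydrogenase subunit favouring lactate production, measured 1224 and 1156 CPM against 188, 167 and 168 CPM, 2.77 ± 0.20 (SE), and Hk2 41.2 and 42.6 CPM against 4.61, 5.26 and 4.98 CPM, 3.08 ± 0.13 (SE). Gpi1, Eno1, Pgk1, Pgam1 and Pdk1 rose by 2.30 to 2.52. The phosphofructokinase isoforms parted, with the liver form Pfkl higher (1.97), the muscle form Pfkm not called (0.79) and the platelet form Pfkp lower, at 10.5 and 10.9 CPM against 218, 212 and 199 CPM, -4.29 ± 0.15 (SE).

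Serine synthesis, one-carbon and ATF4 genes rose in 14 of 20 cases. Phgdh, the first enzyme of serine synthesis, measured 444 and 415 CPM against 81.5, 85.6 and 76.7 CPM, 2.40 ± 0.14 (SE), and the transporter subunits Slc7a5 and Slc3a2 rose by 2.68 and 2.21. Atf4 itself rose by 1.45 and its targets Trib3 and Atf5 by 5.02 and 2.48. Asns (0.64) and Psat1 (0.49) were not called, and the cystine transporter Slc7a11 fell by 1.28.

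Cholesterol synthesis genes were mostly not called, with 3 of 22 genes higher, 1 lower and a median of 0.07. The regulators Srebf2 (1.80) and Insig1 (1.67) rose with the enzyme gene Sqle (1.06). Srebf2 and Sqle lie on chromosome 15, and without that chromosome 1 gene was called higher. Nuclear genes of the respiratory chain had 2 higher and 1 lower of 24 and a median of 0.11. The mitochondrially encoded genes were lower in 9 of 13 cases, with a median of -1.22 and mt-Nd2 at 2485 and 2211 CPM against 6554, 6089.8 and 8902 CPM. Under quantile normalization 4 of them were called.

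The largest rises by rule, apart from genes described above, included those of Osr2, Lgals1, Troap, Eif4ebp1 and Olfr1349. Osr2, a zinc finger factor of mesenchyme, had no count in SVZ and 17.1 and 14.6 CPM in NSC-YAP, at least 340.3-fold higher. Lgals1, the galectin-1 gene, measured 598 and 569 CPM against 7.28, 8.18 and 6.74 CPM, 6.30 ± 0.16 (SE). Eif4ebp1, a translation repressor and ATF4 target, measured 117 and 109 CPM against 2.03, 2.34 and 2.15 CPM. The largest falls included those of Ttr, Rian and Meg3, given above, and of Vsnl1, Scn4b, Luzp2, Spock3, Cend1 and Slc17a6, the latter 6 each without a count in NSC-YAP. Slc17a6, a vesicular glutamate transporter, measured 158, 169 and 123 CPM in SVZ and was at least 2453-fold lower in NSC-YAP. Genes without a count were unevenly divided: 507 symbols had at least 1 CPM on average in SVZ and no count in NSC-YAP, and 20 the reverse. The latter include Vax2, an optic vesicle factor, and Barx1, a craniofacial factor, at 3.42 and 4.12 and 3.79 and 2.77 CPM.

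The most abundant nuclear transcripts differed in kind. In SVZ Mbp and Mobp, both of myelin, were among the 8 symbols of highest level. In NSC-YAP Gapdh (6062 and 5874 CPM), Eef1a1 (7779.7 and 7536 CPM), Slc1a3 (3750.2 and 3697 CPM) and the fatty acid desaturase gene Scd2 (5923 and 5920.3 CPM) were. CPM are not divided by transcript length, so this is an order of counts.

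The 2 NSC-YAP libraries differed little. Among 7883 genes with at least 20 CPM their median difference was 0.068 on the log2 scale, and 0 genes differed by more than 1. Among 8140 such genes the 3 SVZ libraries had a median range of 0.162, and 19 genes ranged over more than 1. The widest were the sex-linked genes. Xist, the RNA of the inactive X chromosome, measured 0.461, 415 and 27.3 CPM in SVZ and Ddx3y, on the Y chromosome, 63.3, 4.54 and 72.1 CPM, and replicate 2 was the high one in Xist and the low one in Ddx3y. In NSC-YAP they measured 0.244 and 0.326 and 48.0 and 50.3 CPM. Xist was called lower in NSC-YAP, but not without SVZ replicate 2 (edgeR adjusted p 0.104) or without either NSC-YAP library (0.139 and 0.133). Choroid plexus genes came next: Kl measured 18.4, 54.0 and 48.6 CPM and Tmem72 10.1, 31.1 and 24.0 CPM, and SVZ replicate 1 was the lowest in both.

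Genes of chromosome 15 were higher in NSC-YAP as a body, though unevenly along its length. Among autosomal genes with at least 5 CPM in both groups, the median log2 ratio of mean CPM on chromosome 15 was 0.84 over 418 genes, and on each of the other 18 autosomes it lay between -0.11 (chromosome 12) and 0.26 (chromosome 7). Of the chromosome 15 genes 78.2% were above 0, against 57.0% of 9716 genes elsewhere, and the median was 1.60-fold that of all autosomes. In windows of 10 Mb along chromosome 15 every median was above 0. The lowest were 0.21 over 10 genes from 40 to 50 Mb and 0.25 over 13 genes from 60 to 70 Mb. The highest was 1.08 over 42 genes from 100 to 110 Mb. In each of 6 pairs of an NSC-YAP with an SVZ library the chromosome 15 median lay between 0.82 and 0.89 and those of the other autosomes between -0.14 and 0.30. Against the YAP-M tumour libraries of the series, which share none of the SVZ samples, the NSC-YAP libraries had a chromosome 15 median of 0.86 over 411 genes, and against YAP-M-dIDR 0.68 over 420. These comparisons share the NSC-YAP libraries. The tumours themselves against SVZ had 0.05 on chromosome 15. Of the genes named above, Osr2, Lgals1, Troap, Wnt7b, Myc, Slc1a3, Itga5, Myh9, Srebf2, Atf4, Nr4a1, Stk3 and Sqle lie there and rose, Sox10 and Arc fell, and Pfkm was not called. Leaving the chromosome out of the fit left 3037 genes higher and 4901 lower. DNA copy number was not measured in these libraries.

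**Figure D5:**
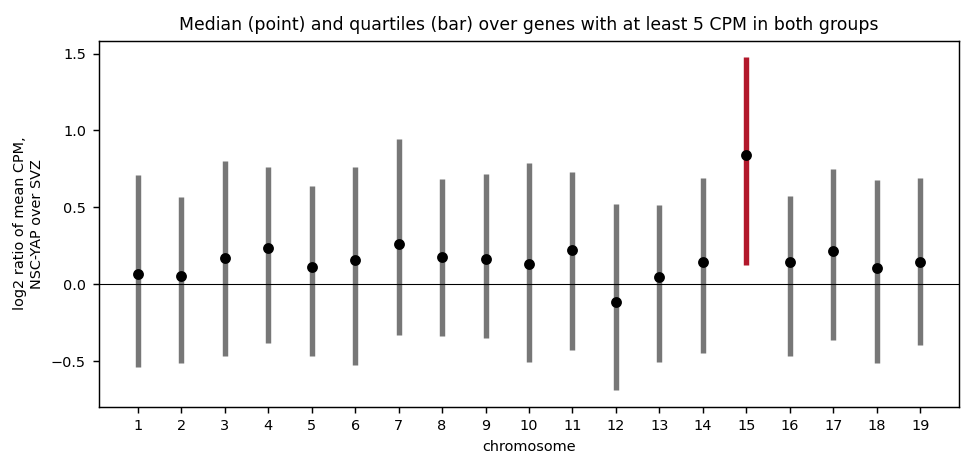
Median (point) and quartiles (bar) of the log2 ratio of mean CPM, NSC-YAP over SVZ, for genes with at least 5 CPM in both groups on each autosome. Chromosome 15 (red bar), at 0.84, lay above the range of -0.11 to 0.26 of the other 18.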

How the data were processed

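Per the labels' protocols, TRIzol and an RNeasy kit served for extraction and a TruSeq RNA kit for the libraries. Reads were aligned with TopHat2 to mm10, per the submitters' processing notes. The sources used here do not give versions, how reads were counted (strand, reads with several matches) or the annotation, so paralogs, overlapping genes and antisense partners may share counts. The authors deposited whole-number counts per gene, without normalization, 1 table for each library. The 53090 entries were summed to 52850 symbols.

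Genes reaching 1 CPM in 2 or more of the 12 RNA-seq libraries were tested with edgeR 4.0.16 in R 4.3.3 (quasi-likelihood test, TMM factors from 0.826 to 1.13, 1 coefficient for each of the 4 groups, Benjamini-Hochberg adjustment over 18329 genes). Fitting all 4 groups gives 1 estimate of spread for each gene, to which the YAP-M tumour and YAP-M-dIDR libraries also contribute. Yap1 was also compared by an exact permutation test of log2(CPM + 1). A level of 3 counts is 0.122 to 0.147 CPM in a library. Where a group had no count, the fold is a lower bound that assumes 3 counts in it (0.0466 CPM in SVZ, 0.0611 in NSC-YAP), and with 1 to 3 counts the ratio has an exact 95% interval. Both cover counting error only, since PCR reads are not independent molecules. Replicates differed by more than sampling noise: chi-square per gene was 4.17 between the NSC-YAP libraries and 9.97 to 24.3 between SVZ libraries.

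The comparison and the 50 gene lists (869 genes, 810 tested) were chosen with earlier results of these data known. Genes were named by rule: the 15 largest rises and 15 largest falls among calls with no overlap of the groups and a mean of 5 CPM or more in the higher group; of each list up to 5 members with the smallest adjusted p and up to 3 called against its majority; 12 fixed genes; the highest levels; the widest ranges; and genes without a count in 1 group. Other list members were chosen after their values were seen, and some genes that the rule names are summarised in counts or not reported here. Lists were described by counts and medians, with no set test. Sequences are from RefSeq (GRCm38.p6), where 12657 of the tested genes had a promoter entry, and the 250 bases before the start were searched on both strands. On simulated data for this comparison (17836 genes) the test recovered 70 of 100 genes changed by 1.5 on the log2 scale. It recovered 89 of 100 changed by 2.5, and called 6 unchanged genes. Far fewer genes were changed there than the 3199 called higher and 5061 called lower in the measured libraries. Recovery and calls of unchanged genes with that many changes were not tested. The alternatives, which include DESeq2 1.42.0 and limma 3.58.1, are given in the closing section. Python 3.11.15 with matplotlib 3.10.9 drew the figures.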

Additional observations from a re-analysis of the deposited data

How the results depend on the processing

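The numbers of called genes stayed within 1.5 times their size under every alternative except the adjusted p alone, without a minimum change, which called 5508 higher and 6509 lower. They were 3674 and 6322 without a filter, 2682 and 3636 with a minimum of 5 CPM, 3138 and 5088 with median-ratio factors, 4591 and 3643 with quantile normalization (299 called genes changed sign), 3144 and 5180 with DESeq2, 3159 and 4686 with the compared groups alone, 3286 and 5104 with mitochondrial genes out of library sizes, and 3199 and 5054 with the highest entry of each symbol. Leaving out 1 library at a time gave 2923 to 3192 higher and 4439 to 4801 lower, and a Yap1 difference of 3.14 to 3.32. Alternatives chosen after seeing the data, without symbols of identical counts and without chromosome 15, gave 3195 and 5053, and 3037 and 4901.

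With the replicate number as a block, 3201 genes were higher and 5047 lower. Same-numbered libraries deviated together with correlations of 0.104 and 0.113, but 2 shared numbers do not establish pairing.

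Of 296 tested genes named in the text, 259 kept call and sign under every alternative. Values that crossed 0 were those of genes near 0 or near the detection limit. Ankrd1 was at 1.59 with quantile normalization and at -1.60 to 1.34 without 1 library. Dlk1 was at 0.0045 without a filter, 0.023 with quantile normalization, 0.14 with the replicate block and -0.15 to 0.12 without 1 library. Lats2 was at -0.017 with the block and -0.0092 to 0.11 without 1 library, Axin2 at -0.010 to 0.13, Mdm2 at -0.058 to 0.24 and Ddx3y at -0.44 to 0.55. The cause of each change was not tested. Depth limits genes under about 0.147 CPM, which is 3 counts in a library.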

Other observations

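Long genes were lower in NSC-YAP. Tested genes were binned by the span from start to end in the deposited coordinates. The median log2 fold change was 0.00 for 6116 genes under 10 kb, of which 25.3% were called lower, and -1.24 for 533 genes of 300 kb or more, of which 53.7% were called lower and 10.5% higher. Between them it was -0.04, -0.14 and -0.41 for spans from 10, 30 and 100 kb. Neuronal genes are often long, and the neuron markers fell by a median of -6.19; the part of either in this pattern was not tested.

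Promoter words differed between lists. The RFX word GTTGCC stood in 41.2% of 17 ependymal promoters with an entry, against 11.8% of all genes with one. That share was not particular to ependymal genes. It was 41.7% of 12 neuron promoters and 60% of 5 blood cell promoters, and lower in the other lists with entries. CCAAT stood in 100% of 16 cholesterol synthesis promoters, a list with few calls, as in 88.9% of 18 mitosis promoters, a list called throughout. All words were counted on both strands.

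Some symbols shared their counts. Of 16295 symbols with at least 100 counts over the 5 libraries, 56 had counts identical in all 5 libraries to those of another symbol, as Rian and AC152063.6 did, with 14334, 14887 and 13791 counts in SVZ and 0 in NSC-YAP. The entry Gm28437 differed little from mt-Co3, with 162221 against 162239 counts in NSC-YAP replicate 1. Such entries stand among the highest levels of both groups, and without the identical symbols 3195 genes were higher and 5053 lower.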
